A study of Zea mays with 16 samples.

Results

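The genes described here were listed as the core steps of benzoxazinoid synthesis in maize, bx1 to bx9. They were chosen by 9 gene IDs, out of 46430 IDs in the count files, of which 44146 are nuclear gene models. The ID listed for bx9 could not be checked against that name, and it is counted among the 9. Leaf RNA came from the maize lines B73, M37W, B104 and CML333, held at 26 °C as controls or exposed to 4 °C. Each line had 2 libraries at each temperature, which makes 8 groups and 16 libraries. B73 is the inbred of the maize reference genome, B104 is a temperate inbred that transforms readily, and M37W and CML333 are warm-climate parents of a maize mapping population. The labels name no edited gene or transgene in any group. Plant age, leaf position and the time spent at 4 °C are not stated in the labels. Nothing says whether the libraries of a group came from separate plants, so p-values measure the spread between these libraries, which may be technical.

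Benzoxazinoids are defence compounds of grasses that are stored as glucosides and released by glucosidases when tissue is damaged. In maize they are most abundant in young seedlings. BX1, a plastid indole-3-glycerol phosphate lyase, makes free indole, and the cytochrome P450 enzymes BX2, BX3, BX4 and BX5 oxidise it step by step to DIBOA. BX8 and BX9 are glucosyltransferases that add the glucose, the dioxygenase BX6 hydroxylates DIBOA glucoside, and the O-methyltransferase BX7 then gives DIMBOA glucoside.

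The files do not pair nuclear IDs with names, and 0 of the nuclear IDs matched the RefSeq gene table of the assembly Zm-B73-REFERENCE-NAM-5.0. Each ID is therefore called by the name it was chosen under: bx1 is Zm00001d048709, bx2 Zm00001d048710, bx3 Zm00001d048702, bx4 Zm00001d048703, bx5 Zm00001d048705, bx6 Zm00001d048634, bx7 Zm00001d049179 and bx8 Zm00001d048707. RefSeq lists all 9 names, bx1 to bx8 on chromosome 4 and bx9 on chromosome 1, and it lists the later pathway genes BX13 and BX14 on chromosome 2. The ID given for bx9, Zm00001d007718, is reported by its ID and with no role, because no file used here gives its chromosome or shows whether it is bx9, BX13, BX14 or another gene. RefSeq also lists the indole-producing lyase igl1 and the glucosidases glu1 and glu2, which could not be tied to an ID. For the same reason mesophyll and bundle sheath marker genes could not be checked.

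Libraries held 1780344 to 2705564 counts. Levels are CPM, counts scaled to a library total of 1000000, and every value is given in the order replicate 1, replicate 2. The QuantSeq 3′ reads count transcript ends, and levels are not compared between genes here. The control libraries of B104 stood apart. Across 21717 IDs their log2(CPM + 1) correlated with the other 14 libraries at 0.516 to 0.622, while those 14 correlated among themselves at 0.737 to 0.973. The top 50 nuclear genes by mean CPM in the other controls took 4.72% and 5.95% of counts in the B104 controls and 14.9% to 21.9% in the other controls. Both temperatures of CML333 also differed in which genes were on. In that line 60 nuclear genes had at least 10 CPM in both libraries of one temperature and 0 counts in both of the other, against 187 in B104, 8 in B73 and 4 in M37W, and the chilled CML333 replicates correlated at 0.855, the lowest of the 8 groups.

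Differences were tested with edgeR's quasi-likelihood test in 1 fit of all 16 libraries, with Benjamini-Hochberg adjustment over the 17410 IDs tested. A gene counted as called where the adjusted p was under 0.05. Because the B104 and CML333 libraries enter the spread of that fit, comparisons of B73 and M37W are also given from a fit of their own 8 libraries (15174 IDs). Changes are given on the log2 scale, each with its standard error (SE). Of the 9 IDs, 7 passed the low-count filter and bx1 and bx2 did not. Zm00001d007718 passed through the chilled B73 and B104 libraries, so its difference from groups near 0 is partly fixed by the filter. The same holds for bx3, which in the fit of 8 passed through B73 alone and is near 0 in M37W. In the fit of 16 bx3 passed through libraries of B73 and B104, and it is near 0 in M37W and the CML333 controls. Where leaving out 1 library is reported, that group keeps 1 library, which is assumed to vary like the other groups. Such a fit has less power for that group, so a call lost there need not be particular to the ID. In leaf RNA, fewer cells of a type and less RNA per cell cannot be told apart.

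The first steps of the pathway, bx1 and bx2, were at or near 0 in almost every library. For bx1, the lyase that makes indole, 10 of 16 libraries had 0 counts and 5 had 1 to 4 counts. The exception was chilled B104 replicate 2, with 85 counts or 37.9 CPM (95% exact binomial interval 30.3 to 46.9 CPM, counting error only), while chilled B104 replicate 1 had 0 counts, which allows up to 1.39 CPM. For bx2, the P450 that takes up indole, 11 libraries had 0 counts and the highest, chilled B73 replicate 1, had 5 counts or 2.07 CPM. No difference in bx2 was detectable at this depth. Downstream genes had counts in the same libraries: bx4, bx5, bx7 and bx8 were above 0 in all 16.

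**Figure D1:**
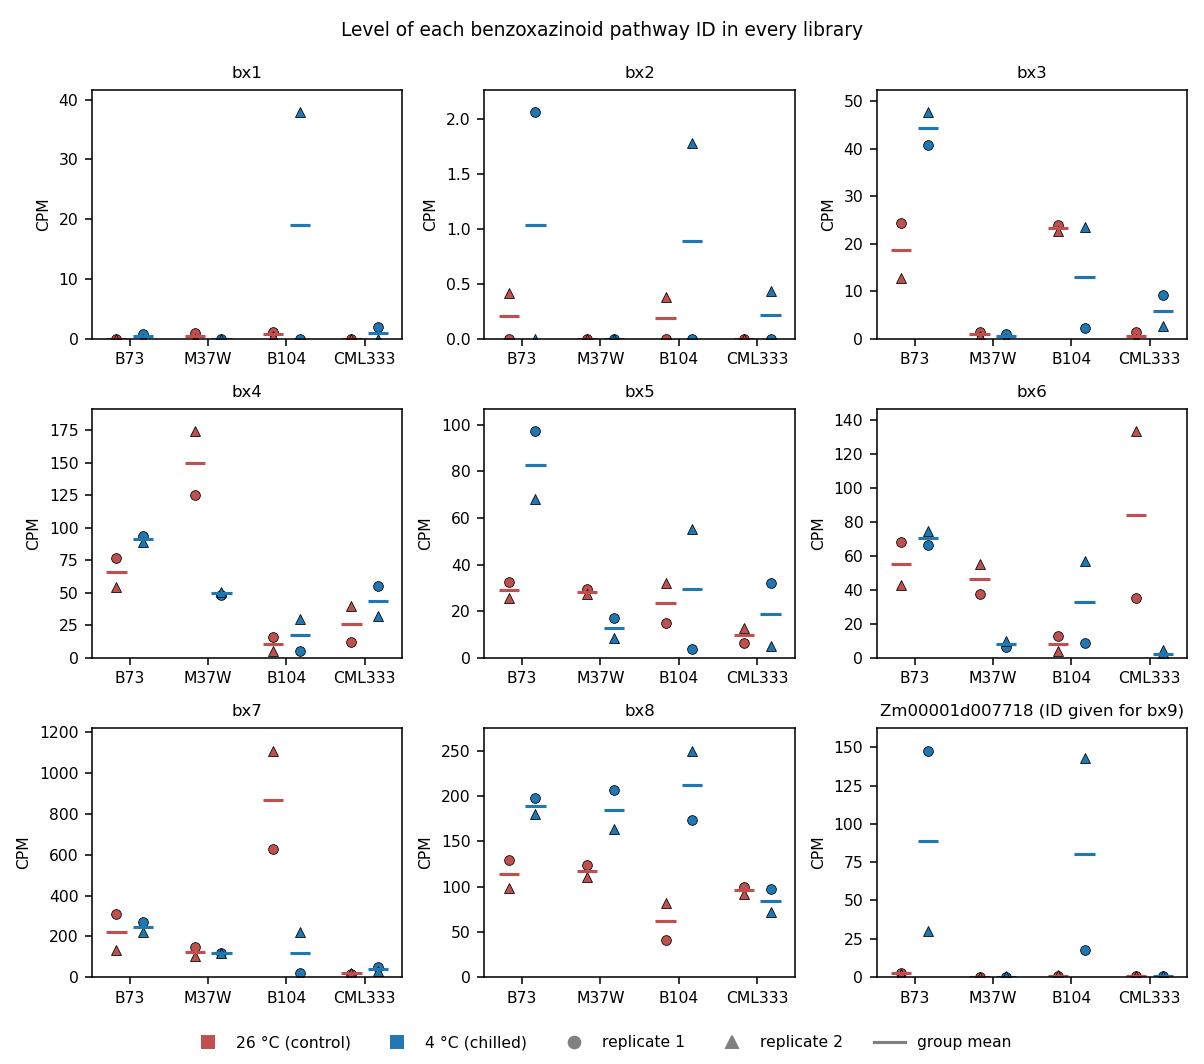
CPM of each of the 9 IDs in all 16 libraries, by line (x axis) and temperature (colour), on a linear y axis of its own per panel. Circles and triangles are replicates 1 and 2 and bars are group means (n = 2). bx8 is higher at 4 °C in B73, M37W and B104, bx4 moves in opposite directions in B73 and M37W, and bx1 is above 2 CPM in 1 library only.

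Chilled B73 leaves had more transcript of several P450 steps and of the glucosyltransferase bx8, and far more of Zm00001d007718. Zm00001d007718 had 2.71 and 2.06 CPM in the B73 controls and 147.9 and 30.3 CPM in the chilled libraries. All chilled values lay above all control values, although the chilled libraries themselves differed widely. Over the group, 412 chilled and 12 control counts gave a CPM ratio of 40.9 (95% interval 23.2 to 79.9, counting error only). The log2 fold change was 5.45 (SE 1.002, edgeR adjusted p 0.018) in the fit of 16 libraries and 5.45 (SE 0.84, adjusted p 0.00284) in the fit of 8. In the smaller fit the call was lost without either B73 control, and in the larger fit it was lost without either control or chilled replicate 1. Over the fits with 1 library left out, the log2 fold change ran from 3.96 to 6.15 in the smaller fit and from 3.95 to 6.14 in the larger.

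The P450 gene bx5, which serves the last oxidation to DIBOA, had 32.5 and 25.5 CPM in the B73 controls and 97.1 and 68.0 CPM in the chilled libraries. The P450 gene bx3 had 24.4 and 12.8 CPM at 26 °C and 40.9 and 47.7 CPM at 4 °C, and bx4, the P450 between them, had 76.7 and 54.8 against 93.8 and 89.3 CPM. For each of these P450 genes the chilled libraries lay above the controls. In edgeR's fit of the 8 B73 and M37W libraries, bx5 rose by 1.78 (SE 0.30, adjusted p 0.000358), bx3 by 1.54 (SE 0.37, adjusted p 0.00576) and bx4 by 0.76 (SE 0.25, adjusted p 0.0322). The rises of bx5 and bx3 remained called with any 1 of the 8 libraries left out, whereas that of bx4 was lost in 5 of 8 such fits, without B73 control replicate 2 or any of the 4 chilled libraries (adjusted p up to 0.127). In the fit of 16 libraries none of these P450 genes passed (adjusted p 0.282 for bx3, 0.526 for bx4 and 0.27 for bx5).

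Of the late steps of the pathway in B73, bx8 was called in the fit of 8 libraries and bx6 and bx7 were not. The glucosyltransferase gene bx8 had 129.3 and 98.0 CPM at 26 °C and 197.9 and 180.9 CPM at 4 °C, with no overlap, and rose by 1.02 (SE 0.24, edgeR adjusted p 0.00444) in the fit of 8 libraries (adjusted p 0.157 in the fit of 16). The dioxygenase gene bx6 had 68.2 and 42.8 CPM in controls and 66.5 and 74.7 CPM in chilled leaves, and the methyltransferase gene bx7 had 310.9 and 132.6 against 268.9 and 219.1 CPM. For both the temperatures overlapped and the test was not passed in either fit. In the fit of 8 the log2 fold change was 0.63 for bx6 (SE 0.28, edgeR adjusted p 0.106). For bx7 it was 0.44 (SE 0.30, adjusted p 0.309). No difference between bx8 and these genes was tested. In all, 5 of the 7 tested IDs rose in B73 in the fit of 8 and 0 fell, where 15.8% of all genes tested rose and 12% fell. The 5 include Zm00001d007718, which passed the low-count filter of this fit through chilled B73 alone. Its rise is therefore partly fixed by the filter. In the larger fit 1 of 7 was called, again Zm00001d007718, where 3.46% of all genes were. There it passed the filter through chilled B73 and chilled B104, so that call is partly fixed too.

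In M37W, bx4, bx5 and bx6 fell on chilling and bx8 rose in the fit of 8 libraries, while no ID was called in the fit of 16. The P450 gene bx4 had 124.9 and 174.0 CPM in the M37W controls, the highest level of bx4 in any group, and 48.6 and 50.8 CPM in the chilled libraries. The dioxygenase gene bx6 had 37.5 and 55.3 CPM at 26 °C and 6.65 and 9.86 CPM at 4 °C. The P450 gene bx5 had 29.6 and 27.2 CPM against 16.9 and 8.38 CPM. For these genes each chilled library lay below both controls.

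The fit of the 8 B73 and M37W libraries gave log2 fold changes in M37W of -2.43 for bx6 (SE 0.35, edgeR adjusted p 0.00014), -1.54 for bx4 (SE 0.26, adjusted p 0.000483) and -1.11 for bx5 (SE 0.35, adjusted p 0.0323). The falls of bx6 and bx4 remained called with any 1 of the 8 libraries left out. That of bx5 was lost without either control or chilled replicate 2 of M37W (adjusted p up to 0.327). The glucosyltransferase gene bx8 had 123.5 and 110.6 CPM in the controls and 206.8 and 163.6 CPM in the chilled libraries and rose by 0.72 (SE 0.24, adjusted p 0.0442), a call lost when any M37W library was left out (highest adjusted p 0.347). The methyltransferase gene bx7 stood at 147.7 and 101.5 CPM in controls and 119.2 and 118.3 CPM in chilled leaves, a log2 fold change of -0.01 (SE 0.31, adjusted p 0.994). The P450 gene bx3 and Zm00001d007718 were near 0 at both temperatures, with 4 and 2 counts for bx3 over the control and chilled groups and 0 and 1 for Zm00001d007718, so no change could be read for either. Of the 7 tested IDs, 3 fell and 1 rose in this fit, where 8.35% of all genes fell and 10.5% rose. In edgeR's fit of 16 libraries 0 of 7 were called in M37W (0.408% of all genes were). At an unadjusted p under 0.05 there were 2 of 7, and 2729 of the 17410 IDs tested. DESeq2 and limma with voom also called 0, where 3.52% and 0.994% of all genes were called. With the 4 M37W libraries fitted alone, edgeR called the same 4 IDs as in the fit of 8, where 31.8% of all genes were called.

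**Figure D2:**
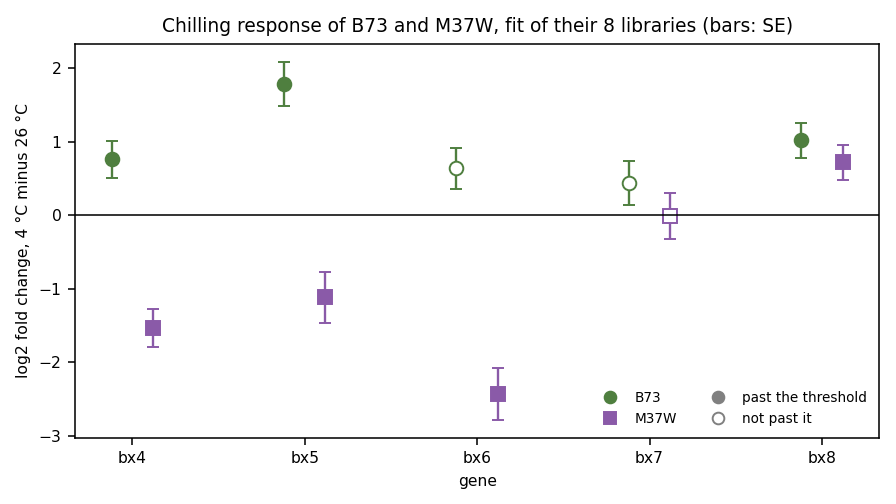
Log2 fold change of chilled against control leaves (y axis) for bx4 to bx8 in B73 (circles) and M37W (squares), from edgeR's fit of the 8 libraries of these lines. Bars are SE and filled symbols passed an adjusted p under 0.05. bx4 and bx5 lie above 0 in B73 and below 0 in M37W, bx6 lies at -2.43 in M37W, and bx8 lies above 0 in both lines.

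The chilling responses of B73 and M37W differed for bx4, bx5 and bx6 in the fit of 8 libraries. Tested as an interaction in the fit of 8 libraries, the response of B73 exceeded that of M37W by 3.07 for bx6 (SE 0.45, edgeR adjusted p 0.00047), 2.90 for bx5 (SE 0.46, adjusted p 0.000759) and 2.30 for bx4 (SE 0.36, adjusted p 0.000701), on the log2 scale. Each of these remained called with any 1 of the 8 libraries left out (adjusted p up to 0.0082). For bx7 the difference was 0.45 (SE 0.44, adjusted p 0.574) and for bx8 0.30 (SE 0.33, adjusted p 0.633). So 3 of 7 IDs differed, all higher in B73, where 5.63% of all genes tested differed in that direction. With all 16 libraries 0 of 7 passed in edgeR (adjusted p 0.38 for bx4, 0.441 for bx5 and 0.379 for bx6), where 0.00574% of all genes passed. At an unadjusted p under 0.05 there were 3 of 7, and 1908 of the 17410 IDs tested. DESeq2 and limma with voom called 0 of the 7 here, where 1.21% and 0.023% of all genes were called.

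For the glucosyltransferase gene bx8 the chilled libraries lay above the controls in B73, M37W and B104. In B104 it had 41.4 and 81.7 CPM in the controls and 173.9 and 250.7 CPM in the chilled libraries (log2 fold change 1.80, SE 0.41, edgeR adjusted p 0.00263, fit of 16), called with any 1 library left out. That rise rests on the B104 controls, the libraries that stood apart. In the libraries labelled CML333 bx8 had 100.1 and 92.1 CPM at 26 °C and 97.6 and 71.8 CPM at 4 °C, which overlap (log2 fold change 0.06, SE 0.40, adjusted p 0.959). Over B73 and M37W together the mean response of bx8 was 0.87 (SE 0.17, edgeR adjusted p 0.000931) in the fit of 8 and 0.87 (SE 0.28, adjusted p 0.0778) in the fit of 16. That average was called for 2 of 7 IDs in the fit of 8, bx8 and, lower, bx6, where 29.1% of all genes were called. With 16 libraries edgeR called 0, where 7.73% of all genes were called. At an unadjusted p under 0.05 there was 1 of 7, and 4179 of the 17410 IDs tested. For the same average limma with voom called 0, where 8.75% of all genes were called, and DESeq2 called 2, where 10.4% were. The 3 groups of chilled B104, B73 and M37W overlapped with each other at 212.3 ± 54.3, 189.4 ± 12.02 and 185.2 ± 30.5 CPM (SD, n = 2).

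Chilled B104 replicates disagreed across the pathway. Replicate 2 was higher than replicate 1 for all 9 IDs. For bx7 the values were 18.0 and 220.8 CPM, a ratio of 12.2, and for bx5 they were 3.70 and 55.3 CPM, a ratio of 14.9. For bx3 they were 2.31 and 23.6 CPM, for bx4 5.55 and 29.9 CPM, for bx6 8.79 and 57.1 CPM and for Zm00001d007718 17.6 and 142.7 CPM. Only bx8 was within 2-fold, at a ratio of 1.44. Of the 8 IDs that reached 10 CPM in either library, 7 differed at least 4-fold on CPM + 1, while 3.71% of the 10504 nuclear IDs of that level did. In the other 7 groups 0 or 1 of the members did. The chilled B104 libraries held 2162046 and 2242153 counts, and mitochondrial IDs took 0.326% and 0.121% of them. Their part in the replicate differences was not tested.

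**Figure D3:**
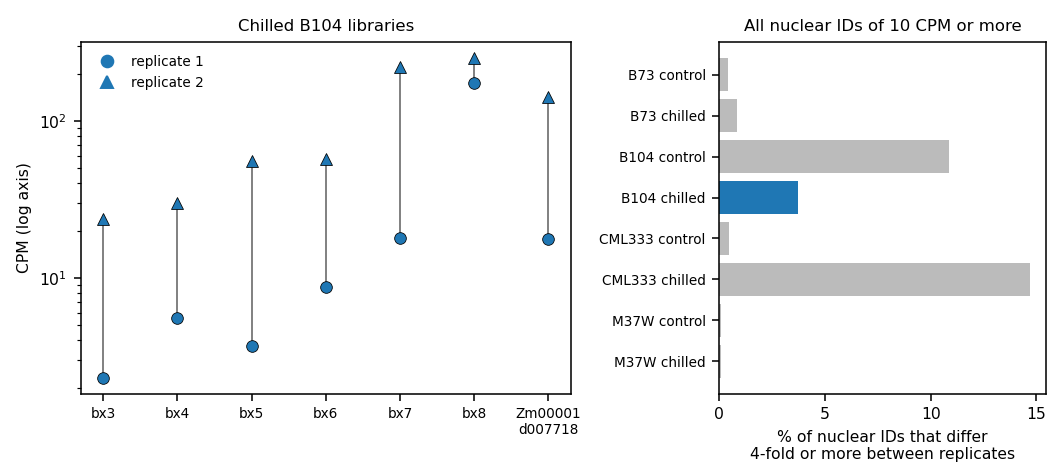
Left, CPM on a log axis of 7 IDs in chilled B104 replicates 1 (circles) and 2 (triangles), joined by lines. Right, share of nuclear IDs with at least 10 CPM in either replicate that differ 4-fold or more between replicates, on CPM + 1, for each group. All IDs on the left but bx8 lie several-fold apart, while the share of such genes in chilled B104 is 3.71%.

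With these replicates, B104 on chilling showed 3 called IDs of 7 in edgeR's fit of 16 libraries, where 51.8% of all genes were called. The 3 include Zm00001d007718, which passed the low-count filter through chilled B73 and chilled B104. Its rise is therefore partly fixed by the filter. Zm00001d007718 had 0.739 and 1.13 CPM in the controls and rose by 6.403 (SE 1.11, adjusted p 0.000511), a CPM ratio of 87.0 from 358 and 5 counts (95% interval 36.9 to 269.5, counting error only). It lay above both controls in each chilled library, and the call held with any 1 library left out. The methyltransferase gene bx7 had 628.7 and 1111 CPM in the B104 controls, above every other library, and fell by 2.84 (SE 0.82, adjusted p 0.0102), lost without control replicate 2 (adjusted p 0.079) and in the 4 B104 libraries alone (adjusted p 0.0737). For bx3 (24.0 and 22.7 CPM in controls), bx4 (16.3 and 4.92 CPM), bx5 (14.8 and 32.1 CPM) and bx6 (12.6 and 4.16 CPM) the temperatures overlapped and the test was not passed (adjusted p 0.44, 0.337, 0.769 and 0.0695). Over fits with 1 library left out, the log2 fold change of bx5 ran from -2.58 to 1.31.

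Against the mean of the other 3 control groups, the B104 controls were higher in bx7 by 3.75 (SE 0.57, edgeR adjusted p 8.48e-05) and in bx3 by 3.58 (SE 0.72, adjusted p 0.000776). They were lower in bx6 (-2.59, SE 0.82, adjusted p 0.0154) and bx4 (-2.34, SE 0.64, adjusted p 0.00643), both lost without B104 control replicate 2 (adjusted p up to 0.136). These 4 of 7 calls stand beside 55.7% of all genes called in the same comparison. IDs with the prefix ENSRNA took 5.03% and 3.69% of counts in the B104 controls and at most 0.101% in any other library. Mitochondrial IDs took 1.195% and 1.52% there and at most 0.354% elsewhere. The part of these differences in the pathway's values was not tested.

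In the libraries labelled CML333, the dioxygenase gene bx6 had 35.0 and 133.2 CPM at 26 °C and 0 and 4.76 CPM at 4 °C. The chilled values lay below the controls, and the log2 fold change was -4.87 (SE 1.06, edgeR adjusted p 0.00885), lost without control replicate 2 (adjusted p 0.0865) and in the line's 4 libraries alone (adjusted p 0.103). The part of the 60 switched genes of this line, and of what sets its libraries apart, in this result was not tested. For the P450 gene bx3 the controls had 1.31 and 0 CPM and the chilled libraries 9.13 and 2.59 CPM (25 against 3 counts, CPM ratio 8.58, 95% interval 2.62 to 44.4, counting error only; adjusted p 0.0968). The P450 gene bx4 had 12.2 and 39.8 CPM against 55.3 and 32.0 CPM, bx5 6.56 and 13.0 against 32.2 and 5.19 CPM, and bx7 16.6 and 21.5 against 47.1 and 29.0 CPM. None of bx4, bx5 and bx7 passed (adjusted p 0.368, 0.465 and 0.345). Zm00001d007718 had 1 count in each of the 4 libraries. In all 1 of 7 IDs was called, where 15.4% of all genes were.

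Lines also differed at the same temperature. The P450 gene bx3 set B73 apart from M37W. At 26 °C B73 held 94 counts against 4 (CPM ratio 19.8, 95% interval 7.50 to 74.3, counting error only) and at 4 °C 184 against 2 (ratio 87.2, interval 23.8 to 726). The bx3 differences passed in both fits (edgeR adjusted p 0.038 at 26 °C and 0.00535 at 4 °C in the fit of 16, 0.000143 and 2.13e-06 in the fit of 8). With 1 library left out they stayed called in all 8 smaller fits, but in the fit of 16 in only 8 of 16 cases at 26 °C, lost without any of the B73 libraries, either B104 or either M37W control, and in 15 of 16 at 4 °C, lost without M37W chilled replicate 2 (adjusted p up to 0.278). M37W controls had more bx4 than B73 controls (B73 minus M37W -1.37, SE 0.25, adjusted p 0.000607 in the fit of 8 and 0.226 in the fit of 16). For bx5, bx6, bx7 and bx8 the controls of B73 and M37W overlapped, and none passed (adjusted p 0.767, 0.885, 0.136 and 0.524 in the fit of 8). At 26 °C, 2 of 7 IDs differed in the fit of 8, where 29.8% of all genes did, and 1 in the fit of 16, where 9.48% did. The 2 include bx3, which is also the 1 called in the fit of 16. In both fits its difference is partly fixed by the low-count filter.

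After chilling B73 stood above M37W at most steps. In the fit of 8 the difference was 3.14 for bx6 (SE 0.35, edgeR adjusted p 4.79e-06), 2.75 for bx5 (SE 0.33, adjusted p 1.22e-05), 1.09 for bx7 (SE 0.31, adjusted p 0.0134) and 0.93 for bx4 (SE 0.26, adjusted p 0.0108). That for bx7 was lost without chilled B73 replicate 1 or either chilled M37W library, and that for bx4 without either chilled M37W library (adjusted p up to 0.0928). Zm00001d007718 held 412 counts in chilled B73 and 1 in chilled M37W (CPM ratio 391, 95% interval 69.7 to 15464, counting error only), and passed in both fits (adjusted p 0.00171 in the fit of 8, lost at 0.0502 without B73 control replicate 2, and 0.0026 in the fit of 16). Only bx8 did not differ past the threshold (0.08, SE 0.23, adjusted p 0.833). The fit of 8 thus called 6 of 7 IDs at 4 °C, all higher in B73, where 18.1% of all genes were higher. The 6 include bx3 and Zm00001d007718, which passed the low-count filter of this fit through B73 alone. Their place in that count is therefore partly fixed by the filter. The fit of 16 called 3 (bx3, bx6 and Zm00001d007718), where 11.1% of all genes were called in either direction. There too bx3 and Zm00001d007718 passed the filter through libraries where they are high, so their calls are partly fixed. In that larger fit bx6 (adjusted p 0.0457) stayed called in 6 of 16 fits with 1 library left out, lost without any of the B73 or M37W libraries or either B104 control. These line comparisons use the same libraries as the chilling responses above and are not independent of them.

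Other line pairs were tested in the fit of 16 libraries. Chilled B104 exceeded chilled M37W in bx3 (58 against 2 counts, edgeR adjusted p 0.0351) and in Zm00001d007718 (358 against 1 count, adjusted p 0.00252), 2 of 7 IDs where 8.67% of all genes were called. Both IDs passed the low-count filter through libraries where they are high, and both are near 0 in M37W. That count is therefore partly fixed by the filter. The call for bx3 held in 5 of 16 fits with 1 library left out, lost without any of the B73 or M37W libraries, either B104 control or chilled B104 replicate 2 (adjusted p up to 0.48). Between chilled B73 and chilled B104, 0 of 7 passed in edgeR, where 4.89% of all genes were called. At an unadjusted p under 0.05 there was 1 of 7, and 2859 of the 17410 IDs tested. DESeq2 and limma with voom called bx4, where 6.03% and 5.79% of all genes were called. For bx7 the comparison of chilled B104 with M37W turned on the B104 replicate used: the log2 difference was 0.17 (SE 0.77, adjusted p 0.948) with both and -2.57 (adjusted p 0.0489) without chilled replicate 2. At 26 °C, B73 exceeded the libraries labelled CML333 in bx3 (94 against 3 counts, adjusted p 0.0133) and in bx7 by 3.51 (SE 0.86, adjusted p 0.0118), 2 of 7 IDs where 20.2% of all genes were called. The place of bx3 in that count is partly fixed by the filter, since bx3 is near 0 in the CML333 controls. The call for bx3 was lost without B73 control replicate 1 or CML333 control replicate 2, and that for bx7 without B73 control replicate 1 or either CML333 control (adjusted p up to 0.124). The CML333 controls were below the M37W controls in bx4 (log2 difference -2.68, SE 0.69, adjusted p 0.0324), 1 of 7 IDs where 7.47% were called. That call held in 6 of 16 fits with 1 library left out, lost without any of the B73 or M37W libraries or either CML333 control (adjusted p up to 0.231).

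Ordered by group mean, bx7 ran from 870.0 ± 341 CPM in B104 controls to 19.0 ± 3.43 CPM in CML333 controls (SD, n = 2). Its libraries did not overlap between B104 controls and the next group, chilled B73, or between chilled M37W, chilled CML333 and CML333 controls, while the groups from chilled B73 to chilled M37W overlapped with their neighbours. For bx5 chilled B73 lay above all other groups at 82.5 ± 20.6 CPM, and the other 7 groups overlapped with their neighbours from 29.5 ± 36.5 CPM in chilled B104 down to 9.76 ± 4.53 CPM in CML333 controls. For bx3 chilled B73 (44.3 ± 4.84 CPM) lay above B104 controls (23.4 ± 0.945 CPM). For bx4 the M37W controls (149.5 ± 34.7 CPM), chilled B73 (91.5 ± 3.15 CPM), B73 controls (65.7 ± 15.5 CPM) and chilled M37W (49.7 ± 1.52 CPM) followed each other without overlap.

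Over the 16 libraries the Pearson correlation of log2(CPM + 1) between members was highest for bx3 with bx5 (0.676) and for bx3 with bx7 (0.661), and lowest for bx7 with bx8 (-0.05) and bx3 with bx4 (-0.05). Over the 8 B73 and M37W libraries many pairs were higher, with 0.855 for bx3 with bx7, 0.828 for bx3 with bx5, 0.793 for bx5 with bx6 and 0.71 for bx3 with bx6 (0.0766 over 16). Zm00001d007718 reached 0.838 with bx3, 0.836 with bx5 and 0.728 with bx7 over these 8 libraries. Other pairs were lower, among them bx4 with bx8 at -0.324 (0.268 over 16) and bx6 with bx8 at -0.357 (0.262 over 16). Among 17139 other IDs, Zm00001d044038 (r = 0.897) and Zm00001d045302 (r = 0.888) were most like the mean of the 7 tested members. Zm00001d044038 was low throughout, at 1.30 to 14.7 CPM, with its highest value in chilled B104 replicate 2, and Zm00001d045302 reached at most 8.26 CPM. Over the 8 B73 and M37W libraries alone they ranked 303 and 79 in likeness. These correlations describe 16 libraries that share lines and replicate spread.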

How the data were processed

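Leaf RNA of 4 maize lines was read by QuantSeq 3′ sequencing, per the labels' protocols. The authors deposited whole-number read counts per gene ID, 1 table per library. STAR and edgeR are named in the submitters' processing notes. The labels state no version, genome build, annotation, strand setting or rule for multi-mapped reads (not given in the sources used here), so reads of related genes (bx8 and bx9, or the P450 genes) may be shared, and transcript ends outside the annotated genes may be uncounted. The deposited per-line tables were not used.

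Groups followed line and temperature in the titles. edgeR 4.0.16 in R 4.3.3 was run with filterByExpr, TMM factors (0.845 to 1.20), 1 mean per group, robust glmQLFit and two-sided glmQLFTest, with SE taken as the absolute log2 fold change over the square root of F. The test was checked on simulated counts. Intervals are exact at 95%, floors are 3 counts, and both cover counting error only. As alternatives, DESeq2 1.42.0 and voom with limma 3.58.1 were run, along with other scaling, filters and thresholds, fewer libraries and replicate blocks. The 9 IDs were named whatever their result, plus at most 2 IDs most like their mean. Members, lists and tests were chosen with earlier results of these data known. No sequence of these genes was used here.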

Additional observations from a re-analysis of the deposited data

Results flagged for a closer look

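Responses of opposite or unequal size between lines drew attention for 4 genes. In the fit of the 8 B73 and M37W libraries, edgeR's test of the difference between the chilling responses of B73 and M37W gave log2 values of 2.30 for bx4, 2.90 for bx5 and 3.07 for bx6. For bx4 all B73 libraries moved up (0.77 in the fit of 16 libraries) and all M37W libraries moved down (-1.53). For bx5 the values were 1.79 in B73 and -1.11 in M37W. In the fit of 16 libraries the difference was not past the threshold for these genes. For bx7 all CML333 libraries moved up (log2 fold change 1.24) and all B104 libraries moved down (-2.84). That difference was not tested, and it involves the B104 controls and the CML333 libraries described above as standing apart.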

How the results depend on the processing

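In the fit of 16 libraries the IDs called, of 7, were 1 for chilling in B73, 0 in M37W, 3 in B104, 1 in CML333, 0 for the mean of B73 and M37W and 0 for their difference. For line pairs they were 1 for B73 and M37W at 26 °C and 3 at 4 °C, 0 for B73 and B104, 2 for B104 and M37W, 2 for B73 and CML333, 1 for CML333 and M37W, and 4 for the B104 controls. All genes called were, in the same order, 3.46%, 0.408%, 51.8%, 15.4%, 7.73%, 0.00574%, 9.48%, 11.1%, 4.89%, 8.67%, 20.2%, 7.47% and 55.7%. The choice of libraries moved most counts. With B73 and M37W libraries only the counts were 5 (B73), 4 (M37W), 2 (mean), 3 (difference), 2 (26 °C) and 6 (4 °C), where 27.8%, 18.9%, 29.1%, 10.1%, 29.8% and 31.8% of all genes tested were called. Without B104 controls and chilled CML333 they became 2 (B73), 1 (mean) and 1 (B73 and B104), where the share of all genes rose to 20.6%, 23.3% and 13.2%. Each line alone gave 4 in B73, 4 in M37W, 2 in B104 (bx7 lost) and 0 in CML333, with 23.3%, 31.8%, 42.6% and 2.86% of all genes called. These fits change the libraries, the genes tested and the spread together.

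With no low-count filter, which tested all 9 IDs among 28431, the counts became 2 (B73), 2 (M37W), 5 (B104), 2 (CML333), 3 (difference), 3 (B73 and M37W at 26 °C), 3 (B73 and B104), 4 (B104 and M37W), 4 (B73 and CML333) and 3 (CML333 and M37W). All genes called then were 7.01%, 4.48%, 33.2%, 12.8%, 1.86%, 8.9%, 5.69%, 8.51%, 15.3% and 8.3%. The counts for chilling in B104, for B73 and B104 and for B104 and M37W each include bx1. In chilled B104, bx1 had 85 counts in replicate 2 and 0 in replicate 1. An adjusted p under 0.01 left 0 in B73, 0 for B73 and M37W at 26 °C, 1 for B104 and M37W, 0 for B73 and CML333 and 0 for CML333 and M37W. At that threshold 0.293%, 3.81%, 3.68%, 8.51% and 1.42% of all genes were called. DESeq2 gave 2 in CML333, 2 for the mean, 1 for B73 and B104 and 2 for CML333 and M37W, where 17.3%, 10.4%, 6.03% and 10.5% of all genes were called. With limma and voom the counts were 1 for B73 and B104 and 1 for B104 and M37W, where 5.79% and 9.51% of all genes were called. The cause of these moves was not tested.

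With a replicate block by the numbers of the titles no count moved by over 1.5 times (1 in B73, 0 in M37W, 3 in B104). With a replicate block by the numbers in the descriptions the counts were 0 in B73 (Zm00001d007718, the ID given for bx9, lost at adjusted p 0.0944), 0 for B73 and M37W at 26 °C (bx3, 0.0861), 2 at 4 °C (bx6 lost, 0.0738) and 1 for B104 and M37W (bx3 lost, 0.09). In the 8 B73 and M37W libraries the replicate block gave 5 (B73), 3 (M37W), 2 (mean), 3 (difference), 3 (26 °C) and 6 (4 °C). Shares of all genes called are not given for the block fits. The counts therefore do not show whether the members moved apart from other genes. Deviations of libraries with the same number in the titles correlated at -0.03 in B73, 0.08 in M37W, 0.03 in B104 and 0.10 in CML333. The numbers in the descriptions pair some libraries otherwise, and that pairing was not tested in this way.

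Leaving out 1 library at a time from the fit of 8 gave 3 to 6 in B73, 2 to 4 in M37W, 2 to 3 for the mean, 3 to 4 for the difference, 2 to 3 at 26 °C and 4 to 6 at 4 °C. From the fit of 16 it gave 0 to 1 in B73, 0 in M37W, 0 to 1 for the mean, 0 for the difference, 0 to 1 at 26 °C and 1 to 4 at 4 °C for B73 and M37W, 2 to 5 in B104, 0 to 2 in CML333, 0 to 4 for B73 and B104, 1 to 3 for B104 and M37W, 0 to 2 for B73 and CML333, 0 to 2 for CML333 and M37W and 3 to 4 for the B104 controls. With 1 of the 16 libraries left out, bx1 could also pass the low-count filter, so these counts are not all out of 7. The shares of all genes called in these fits are not given. A changed count therefore need not be particular to the members. The highest count in B104, without chilled replicate 1, includes bx1, which rests on the 85 counts of chilled replicate 2. In 1 case a direction turned past the threshold: bx7 in chilled B104 against M37W, -2.57 without chilled B104 replicate 2 and 1.05 without replicate 1. Levels with TMM scaling moved by over 1 SD in 5 of 72 group means, and with nuclear counts only in 1. The depth limits bx1, bx2, and bx3 and Zm00001d007718 in M37W and CML333, which held few or no counts.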

Other observations

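Summed over the 9 IDs, Zm00001d007718 included, the share of counts was 0.0146% in chilled CML333 replicate 2 and 0.126% in B104 control replicate 2. These were the lowest and the highest of the 16 libraries. The single ID bx7 made up 88.3% of the sum in B104 control replicate 2, a library that stood apart, and 19.8% in chilled CML333 replicate 2.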
